A study of Mus musculus with 15 samples.

Results

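Hepatocytes share the liver with sinusoidal endothelial cells, Kupffer cells and stellate cells, and a small amount of RNA of these non-parenchymal cells can remain after hepatocytes are isolated and sorted. A set of 33 marker genes of these cells, picked by symbol out of 55984 in the count table, was followed across the sorted populations. The set holds 12 endothelial genes, 14 Kupffer cell and leukocyte genes and 7 stellate cell genes. The set was fixed by symbol as markers of these cell types, by a rule with no measured value in it, and it was drawn up with earlier results of these data known.

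The libraries came from hepatocytes of wild-type C57BL/6JJcl adult male mice, with no transgene and no treatment. Livers were perfused with collagenase, the dispersed cells went through a Percoll spin, and live single hepatocytes were sorted by DNA content after staining with the dye Hoechst. The populations were 2n-whole (diploid), 4n-whole (tetraploid), and the 4n-top and 4n-bottom parts of the tetraploid gate, which have higher and lower Hoechst-height and are enriched for mononucleated and binucleated cells, respectively. Libraries of 4 mice were used for each of 2n-whole, 4n-whole and 4n-bottom. Those of 3 mice (mice 2 to 4) were used for 4n-top, which makes 15 libraries. The study left its 4n-top sample numbered 1 out of its analysis for poor RNA quality. The gates removed small non-parenchymal cells by light scatter, doublets and dead cells, but used no surface marker, and which cells the counted RNA came from was not measured. The 4n-top cells went through 1 round of sorting, and after the sort 2n cells were pelleted at a higher force and for longer than 4n cells, a step that cannot be told apart from the population.

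Sinusoidal endothelial cells line the blood channels of the liver and take up waste molecules through scavenger receptors, Kupffer cells are the resident macrophages of those channels, and stellate cells sit behind the endothelium, store vitamin A and make matrix when activated. All of them are smaller than hepatocytes and mostly diploid. In bulk RNA, fewer cells of a type and less RNA per cell cannot be told apart.

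The libraries held 22049498 to 42096421 counts, with a median of 36876435, and values are given here as CPM, which scales each library to 1000000 counts. A count of 3, taken as the detection floor, stood for 0.0713 to 0.136 CPM and covers counting error only. Mitochondrial genes took 20.5 to 26.2% of counts in 2n-whole, 8.84 to 18.5% in 4n-whole, 12.2 to 23.6% in 4n-bottom and 11.9 to 13.0% in 4n-top. The 4n-whole library of mouse 2 had the fewest counts, the lowest mitochondrial share and the highest share of ribosomal RNA (3.85%, against 0.932% in the lowest library).

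The hepatocyte label was checked with Alb. This gene of the serum albumin that hepatocytes secrete, stood between 50800 and 73500 CPM in every library, while the 33 markers together summed to 12.8 CPM in the lowest library and 57.6 CPM in the highest, with a median of 32.8 CPM. Of the 33 markers, 26 had a mean under 1 CPM. Only 7 were above the floor in all 15 libraries: Ptprb, Stab2, Kdr, Eng, Stab1 and Egfl7 of the endothelial genes and Reln of the stellate genes. In contrast, 13 of the 14 Kupffer and leukocyte genes were at 0 in at least 1 library. The number of markers with no count ranged from 2 of 33 (2n-whole of mouse 3) to 14 of 33 (4n-top of mouse 4).

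**Figure D1:**
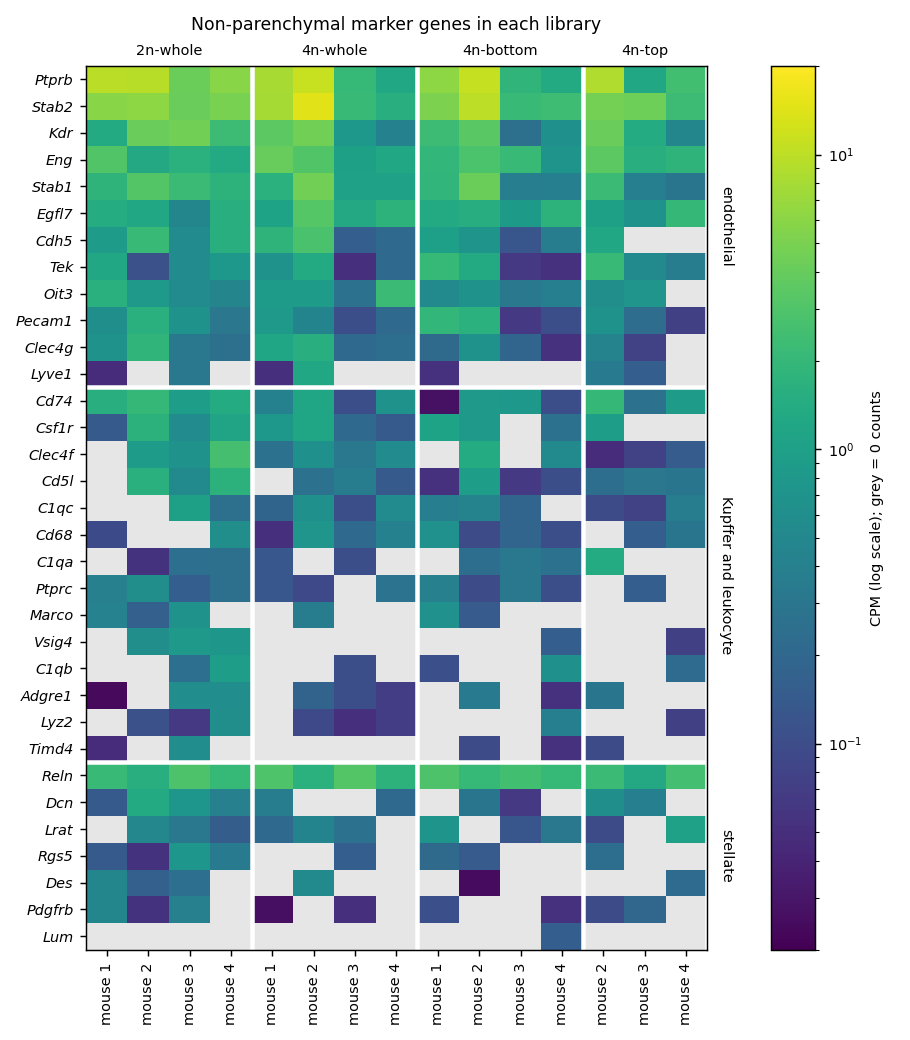
Level of each of the 33 markers (rows, by cell type and mean) in each of the 15 libraries (columns, by population and mouse), in CPM on a log colour scale with grey for 0 counts. Ptprb and Stab2 had the highest means (5.65 and 5.24 CPM), grey cells were few among the endothelial genes other than Lyve1, and they were frequent among the Kupffer and stellate genes.

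The endothelial genes carried most of the marker RNA. Their sum was 20.2 to 31.9 CPM in 2n-whole (25.5 ± 5.61, SD, n = 4), 9.03 to 49.7 CPM in 4n-whole (25.2 ± 19.3, n = 4) and 8.19 to 38.0 CPM in 4n-bottom (19.8 ± 14, n = 4). In 4n-top it was 9.72 to 29.8 CPM (17.0 ± 11.2, n = 3). The means of 2n-whole and 4n-whole differed by far less than the spread between mice, and the spread itself was wider in each 4n population than in 2n-whole. In 4n-whole the sums were 31.7 and 49.7 CPM in mice 1 and 2 and 9.03 and 10.38 CPM in mice 3 and 4. The 4n-bottom libraries gave 24.6 and 38.0 CPM in mice 1 and 2 and 8.30 and 8.19 CPM in mice 3 and 4. In 4n-top, mouse 2 gave 29.8 CPM, mouse 3 gave 11.41 CPM and mouse 4 gave 9.72 CPM. In 2n-whole the sums of mice 1 to 4 were 28.4, 31.9, 20.2 and 21.3 CPM. Mouse 2 was thus the highest in every 4n population and in 2n-whole, and mice 1 and 2 lay above mice 3 and 4 there as well. Mouse 2 held the highest value for 9 of 12 endothelial genes in 4n-whole, 7 of 12 in 4n-bottom and 10 of 12 in 4n-top, against 5 of 12 in 2n-whole. Set beside the 2n-whole library of the same mouse, the 4n-whole sum was 1.12 times as high in mouse 1, 1.56 in mouse 2, 0.446 in mouse 3 and 0.488 in mouse 4.

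The Kupffer and leukocyte genes were at a lower level, and in most mice lower in 4n than in 2n cells. They summed to 2.66 to 11.2 CPM in 2n-whole (7.18 ± 3.50, SD, n = 4) and 1.69 to 5.35 CPM in 4n-whole (2.99 ± 1.67, n = 4). In 4n-bottom they gave 1.88 to 5.44 CPM (3.36 ± 1.51, n = 4), and in 4n-top 1.06 to 5.09 CPM (2.84 ± 2.06, n = 3). The 2n-whole sums of mice 2 to 4 (7.71, 7.17 and 11.2 CPM) lay above every 4n library, while that of mouse 1 (2.66 CPM) lay among them. The ratio of 4n-whole to 2n-whole was below 1 in each of the 4 mice, at 0.740, 0.694, 0.236 and 0.263 in mice 1 to 4. The same ratio for 4n-top was 0.661, 0.147 and 0.212 in mice 2 to 4. For 4n-bottom it was 1.26 in mouse 1 and 0.705, 0.262 and 0.248 in mice 2 to 4.

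The stellate genes summed to 2.97 to 5.41 CPM in 2n-whole and 1.96 to 3.64 CPM in 4n-whole. The 4n-bottom libraries gave 2.52 to 3.91 CPM and the 4n-top libraries 1.88 to 3.79 CPM. These ranges overlapped throughout. Reln alone made up 70.3% of the mean sum, so the stellate sum was largely a reading of 1 gene.

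**Figure D2:**
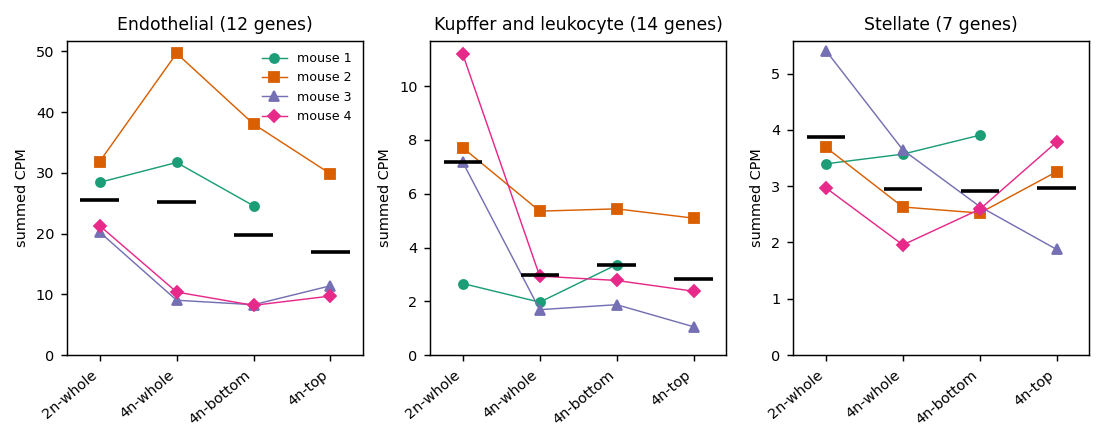
Summed level of the endothelial, the Kupffer and leukocyte, and the stellate markers in CPM (vertical axis, from 0) in each population, with 1 coloured line and symbol per mouse and a black bar at the mean of the mice. Endothelial sums of mice 3 and 4 were 20.2 and 21.3 CPM in 2n-whole and 8.19 to 11.41 CPM in the 4n populations, while mouse 2 stayed at 29.8 CPM or more. The 4n-top population has no mouse 1.

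Counted gene by gene, the mean CPM was lower in 4n-whole than in 2n-whole for 23 of 33 markers (6 of 12 endothelial, 12 of 14 Kupffer and leukocyte, 5 of 7 stellate), against 51.7% of all genes with a count in either population. It was lower in 4n-bottom for 24 of 33 markers (52.2% of all such genes) and lower in 4n-top for 26 of 33 (56.5%). Scaling by TMM, which moves the median gene by -0.21, -0.12 and -0.17 (log2) in these comparisons, gave 26, 25 and 27 of 33. Between the tetraploid parts, 23 of 33 markers had a lower mean in 4n-top than in 4n-bottom on both scales. This compares with 51.7% of all genes with a count in either. Every mean set against 4n-top includes mouse 1, which 4n-top lacks. Within mice 2 to 4, the sum of all 33 markers in 4n-top was 0.830, 1.12 and 1.17 times that in 4n-bottom. The 4n-whole mean was lower than the 4n-bottom mean for 16 of 33 markers (44.4% of such genes) and lower than the 4n-top mean for 12 of 33 (41.5%). Genes of 1 cell type in 1 library share their source, so these counts describe the libraries and carry no p.

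A test was run to find markers that differ between populations beyond the spread left after differences between mice are taken out. It was edgeR's quasi-likelihood test with the mouse as a block, over all 17488 genes that passed a filter on low counts. Of the 33 markers, 25 passed (12 endothelial, 10 Kupffer and leukocyte, 3 stellate), and Lyz2, C1qa, C1qb, Timd4, Des, Rgs5, Pdgfrb and Lum did not. A gene was called at a Benjamini-Hochberg adjusted p below 0.05 with a log2 fold change beyond 0.5 either way. In 4n-whole against 2n-whole 1 of the 25 was called, and it fell, where 3.47% of all genes tested were called in either direction and 1.73% were called lower. A share of 1 in 25 is near that background. Over the 25 the median log2 fold change was -1.03, and over all genes tested -0.01.

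The called gene was Ptprb, the endothelial receptor tyrosine phosphatase VE-PTP, at chr10:116111428-116225440 on the plus strand (GRCm39). It stood at 9.84, 9.42, 4.21 and 5.94 CPM in 2n-whole of mice 1 to 4, and at 8.11, 11.2, 2.03 and 1.22 CPM in 4n-whole. The libraries overlapped, and Ptprb was lower in 4n-whole in mice 1, 3 and 4 (ratios of 0.824, 0.483 and 0.206) and higher in mouse 2 (1.19). The means were 7.35 ± 2.73 and 5.63 ± 4.80 CPM (SD, n = 4 each). The fitted log2 fold change, with the mouse as a block, was -1.03 ± 0.30 (SE), with an adjusted p of 0.0387 in edgeR's quasi-likelihood test. The call was lost without the 2n-whole library of mouse 3 (-0.90, adjusted p 0.113) or of mouse 4 (-0.68, adjusted p 0.237), without the 4n-whole library of mouse 2 (-1.12, adjusted p 0.0568) or of mouse 4 (-0.74, adjusted p 0.223), and with no block for the mouse (-0.61, adjusted p 0.783). With ribosomal and mitochondrial genes left out the value was -1.04.

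Ptprb stood lower in the other tetraploid populations by a like amount without passing the test. It was at 6.21, 10.8, 1.84 and 1.37 CPM in 4n-bottom of mice 1 to 4 (log2 fold change from 2n-whole -1.08 ± 0.30, adjusted p 0.130 in edgeR) and at 8.86, 1.25 and 2.45 CPM in 4n-top of mice 2 to 4 (-1.16 ± 0.33, adjusted p 0.102). Without mouse 2, Ptprb was called lower in both 4n-bottom (adjusted p 0.00872) and 4n-top (adjusted p 0.0405). These comparisons share the 2n-whole libraries. The 4n-top and 4n-bottom values differed by -0.08 ± 0.33 (adjusted p 1 in edgeR).

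Stab2, a scavenger receptor that clears hyaluronan in the sinusoid (chr10:86675054-86843889, minus strand, GRCm39), was as abundant as Ptprb. It read 5.87, 6.25, 4.09 and 5.04 CPM in 2n-whole of mice 1 to 4, the tightest set of any population, and 7.95, 14.7, 2.09 and 1.57 CPM in 4n-whole. In 4n-bottom it read 5.15, 10.1, 2.10 and 2.35 CPM, and in 4n-top 4.73, 4.34 and 2.26 CPM. Mice 1 and 2 lay above and mice 3 and 4 below all 2n-whole libraries in 4n-whole, and the log2 fold change was -0.37 ± 0.34 (adjusted p 0.618 in edgeR). Per kilobase of exon, Stab2 had the highest mean over the 15 libraries (0.486 CPM per kb), followed by Ptprb (0.394), Cd74 (0.348) and Eng (0.265), and the library ranges of Stab2 and Ptprb overlapped widely.

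Kdr, the VEGF receptor VEGFR2 (chr5:76093487-76139884, minus strand, GRCm39), also split between mice in the tetraploid cells. In 2n-whole it stood at 1.38, 4.10, 4.59 and 2.30 CPM in mice 1 to 4. In 4n-whole it stood at 3.46, 4.63, 0.792 and 0.419 CPM, which is 2.51 and 1.13 times the 2n-whole value in mice 1 and 2 and 0.173 and 0.182 times in mice 3 and 4. The 4n-bottom values were 2.25, 3.45, 0.254 and 0.634 CPM and the 4n-top values of mice 2 to 4 were 4.18, 1.41 and 0.482 CPM. The log2 fold changes from 2n-whole were -1.28 ± 0.54 in 4n-whole, -1.61 ± 0.54 in 4n-bottom and -1.25 ± 0.57 in 4n-top, and none was called (adjusted p of 0.168, 0.262 and 0.398 in edgeR). Without mouse 1, Kdr was called lower in 4n-whole (-1.95, adjusted p 0.0319 in edgeR). With no filter on low counts, edgeR called Kdr lower in 4n-whole (adjusted p 0.0415) and in 4n-bottom (adjusted p 0.0137). So did DESeq2 after ComBat-seq, the study's adjustment for the mouse (adjusted p 0.0216 and 0.0161).

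Stab1, the paralogue of Stab2, and Cdh5, the adhesion molecule of endothelial junctions, were singled out after their values were seen. Stab1 read 1.81, 3.11, 2.2 and 1.74 CPM in 2n-whole and 2.2, 0.391 and 0.297 CPM in 4n-top of mice 2 to 4. Its log2 fold change of -1.93 ± 0.52 came nearest to a call in that comparison (adjusted p 0.0669 in edgeR). Cdh5 read 0.879, 2.09, 0.566 and 1.56 CPM in 2n-whole. In 4n-top it read 1.26 CPM in mouse 2 and had no count in mice 3 and 4 (-2.87 ± 0.92, adjusted p 0.164). For both genes the 4n-top library of mouse 2 lay within the 2n-whole range and those of mice 3 and 4 lay below it.

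The other endothelial genes were lower or differed less. Eng, a co-receptor of TGF-beta, ranged from 0.714 to 4.02 CPM over the 15 libraries and Egfl7, a protein secreted by endothelial cells, from 0.472 to 3.27 CPM. Their log2 fold changes from 2n-whole lay between -0.12 and 0.50 over the 3 tetraploid populations. Egfl7, Eng, Stab1 and Oit3 overlap Agpat2, Fpgs, Nt5dc2 and Pla2g12b, respectively, on the opposite strand. Other markers also overlap annotated genes there, and the strand setting of the counting was not given in the sources used here. Pecam1, Tek, Oit3 and Clec4g had means of 0.528 to 0.770 CPM. Clec4g was not called in 4n-top against 2n-whole by edgeR (-2.57 ± 0.94, adjusted p 0.260). DESeq2 after ComBat-seq called it lower there (-2.65, adjusted p 0.00972). Lyve1, a hyaluronan receptor and a defining marker of sinusoidal endothelium, was at 0 in 8 of 15 libraries and above the floor in 4, with 28 of its 62 counts in the 4n-whole library of mouse 2.

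Sequences near the start of Stab1, Stab2 and Kdr are shown as examples. All of these genes read higher in mice 1 and 2 than in mice 3 and 4 in both 4n-whole and 4n-bottom. So did others, among them Tek and Clec4g, whose promoters are not printed (0 and 3 matches to the motif below). These are reference sequences, and whether they have a part in the differences between mice was not tested. The 250 bases before each start site come from RefSeq (GRCm38.p6, a build other than that of the counts), each on the minus strand and written 5′ to 3′. Capitals mark the motif AGGAAG or its reverse complement CTTCCT. The motif holds the shorter core bound by ETS factors, a family with many members in endothelium and macrophages.
Stab1, chr14:31168642-31168891: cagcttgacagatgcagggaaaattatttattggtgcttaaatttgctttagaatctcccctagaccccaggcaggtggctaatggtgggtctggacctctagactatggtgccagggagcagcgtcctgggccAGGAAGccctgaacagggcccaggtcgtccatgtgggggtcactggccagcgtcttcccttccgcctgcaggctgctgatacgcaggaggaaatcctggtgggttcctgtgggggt
Stab2, chr10:87007943-87008192: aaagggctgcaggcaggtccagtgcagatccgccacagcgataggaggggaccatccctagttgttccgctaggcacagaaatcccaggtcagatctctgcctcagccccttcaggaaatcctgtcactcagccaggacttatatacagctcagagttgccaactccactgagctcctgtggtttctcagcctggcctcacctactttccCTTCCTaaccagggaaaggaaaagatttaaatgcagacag
Kdr, chr5:75978456-75978705: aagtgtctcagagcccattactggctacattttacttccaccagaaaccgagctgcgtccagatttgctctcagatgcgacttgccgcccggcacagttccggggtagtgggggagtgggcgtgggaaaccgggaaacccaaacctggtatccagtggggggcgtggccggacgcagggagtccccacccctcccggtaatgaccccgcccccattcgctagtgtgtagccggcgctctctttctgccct
Stab1 and Stab2 each hold 1 match to the full motif and Kdr none. The shorter core was not counted, and it also occurs outside the capitals, in Kdr too. Of the markers with a RefSeq promoter, 5 of 7 endothelial genes, 6 of 10 Kupffer and leukocyte genes and 0 of 4 stellate genes had a match in at least 1 promoter (6 of 9, 7 of 11 and 0 of 4 promoters), against 29.5% of 32851 promoters of that length. Ptprb had no entry. A match describes the letters and is not a bound site.

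**Figure D3:**
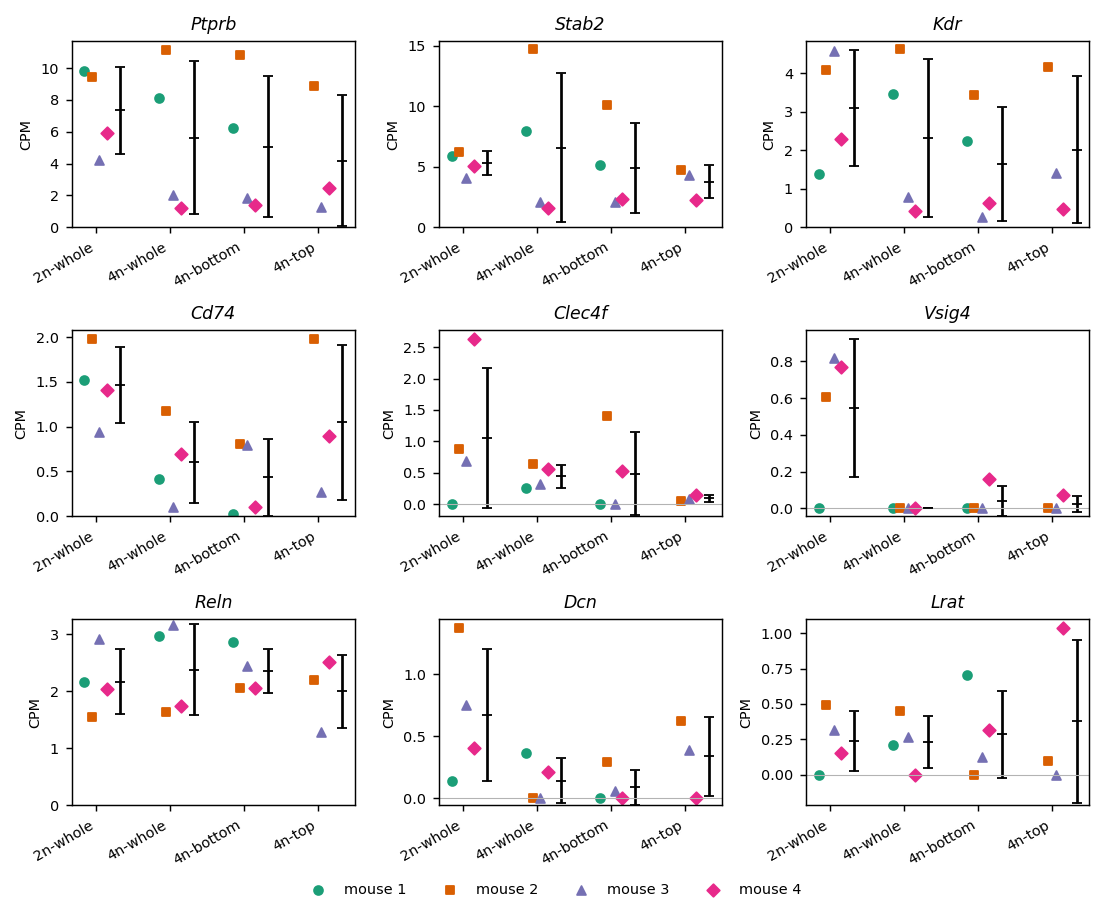
Level in CPM (vertical axis) of 9 markers in each population, with 1 symbol per mouse and, to the right, the mean with bars of 1 SD. Ptprb, Stab2 and Kdr of mice 3 and 4 sat low in 4n-whole and 4n-bottom beside mice 1 and 2, Vsig4 had counts in 2n-whole of 3 mice and none in 4n-whole, and Reln lay between 1.29 and 3.17 CPM throughout.

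Among the Kupffer and leukocyte genes none was called in any of the 6 comparisons in the edgeR test described above. Other edgeR settings called Vsig4, Clec4f or Cd74 lower, as given below. DESeq2 with the mouse as a block called none in the comparisons with 2n-whole. At an unadjusted p under 0.05, 3 of the 10 tested were lower in 4n-whole than in 2n-whole (Vsig4, Cd74 and Cd5l), 2 were lower in 4n-bottom and 4 in 4n-top, where 10.1%, 4.64% and 5.31% of all genes tested were lower at that p. None of the 10 was higher in these comparisons, where 10.3%, 5.52% and 5.99% of all genes were.

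Cd74, the invariant chain of MHC class II, was the most abundant of them at 0.876 CPM over all libraries. It read 1.52, 1.98, 0.943 and 1.41 CPM in 2n-whole of mice 1 to 4 and 0.420, 1.18, 0.106 and 0.699 CPM in 4n-whole, lower in each mouse (-1.72 ± 0.70, adjusted p 0.157 in edgeR). In 4n-bottom it read 0.0271, 0.808, 0.795 and 0.106 CPM, so that every 4n-bottom library lay below every 2n-whole library, a separation found in 1.04% of all genes tested. In 4n-top it read 1.98, 0.274 and 0.891 CPM, which overlapped 2n-whole.

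Vsig4, the complement receptor of resident macrophages (chrX:95290807-95337044, minus strand, GRCm39), had no count in any 4n-whole library. In 2n-whole it had 0, 22, 26 and 30 counts in mice 1 to 4, a mean of 0.548 CPM. Taking a floor of 3 counts per 4n-whole library (0.0997 CPM on average), Vsig4 was at least 5.49-fold lower in 4n-whole, with an adjusted p of 0.0512 in edgeR. The 4n-bottom libraries held 6 counts in mouse 4 and none in mice 1 to 3, and the 4n-top libraries held 2 counts in mouse 4 and none in mice 2 and 3. The gene was singled out after its values were seen, and it was called in 4n-whole with no filter on low counts (adjusted p 0.0376), with ribosomal and mitochondrial genes left out (0.0478), and with counts halved (0.0216). It was not called with no block for the mouse (0.219), with DESeq2 size factors in edgeR (0.0504), in DESeq2 with the block (0.375) or in DESeq2 after ComBat-seq (0.121). Over the 16 alternatives that tested it the adjusted p ran from 0.0216 to 0.442, and 6 of them called it. It was also not called without mouse 2, 3 or 4, at edgeR adjusted p-values of 0.247, 0.209 and 0.442.

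Clec4f, a lectin that in mouse liver marks Kupffer cells, was at 0, 0.881, 0.692 and 2.64 CPM in 2n-whole of mice 1 to 4. It was at 0.262, 0.635, 0.317 and 0.559 CPM in 4n-whole and at 0, 1.40, 0 and 0.529 CPM in 4n-bottom. In 4n-top it was near the floor at 0.0483, 0.0782 and 0.148 CPM, and every 4n-whole library lay above every 4n-top library, as for 1.84% of all genes tested. The log2 fold changes from 2n-whole were -0.51 ± 1.16 in 4n-whole, -1.50 ± 1.05 in 4n-bottom and -3.75 ± 1.27 in 4n-top (adjusted p of 0.867, 0.671 and 0.202 in edgeR). With no filter on low counts, edgeR called Clec4f lower in 4n-top (-3.72, adjusted p 0.0415). It did so too with the libraries of the 2 populations only (-4.02, adjusted p 0.0255).

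Csf1r, the receptor that macrophages need to survive, stood at 0.142, 1.71, 0.566 and 1.13 CPM in 2n-whole and at 0.787, 1.18, 0.211 and 0.140 CPM in 4n-whole of mice 1 to 4. In 4n-bottom it stood at 1.08, 0.833, 0 and 0.264 CPM, and in 4n-top at 0.941 CPM in mouse 2 with no count in mice 3 and 4. The groups overlapped (-1.45 ± 0.98 in 4n-whole, adjusted p 0.448 in edgeR). Cd5l, a protein secreted by tissue macrophages, had 0, 58, 17 and 66 counts in 2n-whole, and 0, 6, 14 and 4 counts in 4n-whole (-2.23 ± 1.05, adjusted p 0.227).

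The remaining Kupffer and leukocyte genes were close to the floor. The complement subunits C1qa, C1qb and C1qc, which macrophages make together, did not move together: 58 of the 117 C1qa counts lay in the 4n-top library of mouse 2, where C1qb had 0 counts and C1qc 4. C1qb had its most counts in 2n-whole of mouse 4 (38 of 84) and C1qc in 2n-whole of mouse 3 (32 of 137). Marco, a scavenger receptor, had 18, 6, 22 and 0 counts in 2n-whole of mice 1 to 4 and none in 4n-top of mice 2 to 4. Mouse 1 has no 4n-top library, and mouse 4 had no count in either population. Timd4, a receptor for dying cells on resident macrophages, had 2, 0, 19 and 0 counts in 2n-whole of mice 1 to 4, none in 4n-whole and 31 in all, so that most of them lay in 1 library. Adgre1, the macrophage antigen F4/80, had 81 counts in all, with 19 and 23 of them in 2n-whole of mice 3 and 4. Ptprc, the leukocyte antigen CD45, had 17, 22, 5 and 10 counts in 2n-whole. In 4n-top of mice 2 to 4 it had 0, 4 and 0 counts. In CPM these lay below every 2n-whole library, as for 2.45% of all genes tested. In mouse 3 this was a near tie close to the floor, at 0.1563 CPM in 4n-top against 0.1572 CPM in 2n-whole. Cd68 of the lysosome and Lyz2, which encodes lysozyme, had means of 0.241 and 0.0981 CPM.

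Of the stellate genes, Reln, the extracellular matrix protein reelin (chr5:22089452-22549700, minus strand, GRCm39), differed between populations by less than the spread between mice. It read 2.16, 1.54, 2.92 and 2.05 CPM in 2n-whole of mice 1 to 4 and 2.97, 1.63, 3.17 and 1.75 CPM in 4n-whole. In 4n-bottom it read 2.87, 2.06, 2.45 and 2.06 CPM, and in 4n-top of mice 2 to 4 it read 2.2, 1.29 and 2.52 CPM. Its log2 fold changes from 2n-whole lay between -0.15 and 0.01, and mouse 2, the highest in 4n-whole for 9 of 12 endothelial genes, was the lowest there for Reln. Other annotated genes lie within Reln on both strands, so its counts may include theirs.

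Dcn, the matrix proteoglycan decorin, read 0.142, 1.38, 0.754 and 0.410 CPM in 2n-whole and 0.367, 0, 0 and 0.210 CPM in 4n-whole. In 4n-bottom it read 0, 0.294, 0.0636 and 0 CPM (-3.48 ± 1.44, adjusted p 0.377 in edgeR), and in 4n-top 0.627, 0.391 and 0 CPM. Lrat, the enzyme that esterifies vitamin A for storage and a defining marker of quiescent stellate cells, had 0 to 18 counts in 2n-whole, 0 to 10 in 4n-whole, 0 to 26 in 4n-bottom and 0 to 28 in 4n-top. Des (desmin), Rgs5 and Pdgfrb had 53, 76 and 53 counts over all libraries. Lum had 6 counts in 1 library and none in the other 14.

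In 4n-bottom against 2n-whole 0 of 25 markers were called, beside 0.463% of all genes, and in 4n-top against 2n-whole 0 of 25, beside 0.961%. The median log2 fold changes of the 25 were -1.09 and -1.26, against 0.00 for all genes tested in both. At an unadjusted p under 0.05 edgeR had 5 markers lower in 4n-whole, 7 in 4n-bottom and 9 in 4n-top, beside the shares of all genes given above for the Kupffer and leukocyte genes. No marker was higher at that p. DESeq2 with the mouse as a block called 1 marker in 4n-whole, 0 in 4n-bottom and 3 in 4n-top (Cdh5, Stab1 and Ptprb), each lower, where it called 2.6%, 0.526% and 1.34% of all genes lower. No comparison within the tetraploid cells called a marker: 0 of 25 in 4n-top against 4n-bottom (0.0114% of all genes), 0 in 4n-whole against 4n-bottom (0.00572%) and 0 in 4n-whole against 4n-top (0%), in edgeR. DESeq2 called 0 of 25 in each as well, beside 0.28%, 0.252% and 0.229% of all genes. At an unadjusted p under 0.05, edgeR had 0, 0 and 3 markers in these, beside 2.79%, 5.57% and 4% of all genes in either direction. The 3 (Clec4g, Stab1 and Clec4f) were higher in 4n-whole than in 4n-top, beside 2.05% of all genes.

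**Figure D4:**
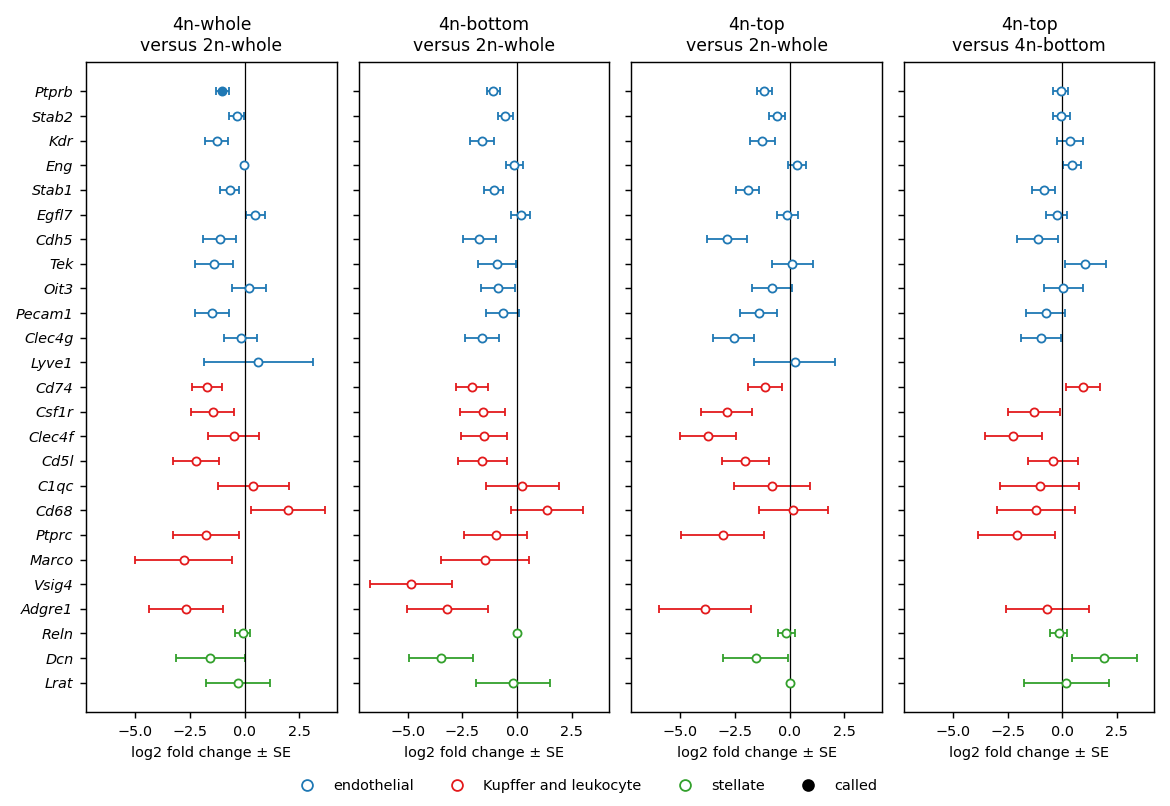
Fitted log2 fold change (horizontal axis, same scale in each panel, bars of 1 SE) of the 25 tested markers in 4 comparisons, coloured by cell type, with a filled symbol for the called gene. Ptprb in 4n-whole against 2n-whole (-1.03) is the filled symbol, bars are left out where the fold change was within 0.02 of 0, and no fold is drawn where a population had 3 counts or fewer.

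Further genes of the same cell types, held in companion lists, were read to see how far the markers stand for them. Of 30 other endothelial genes 24 were tested, and 1, F8 (coagulation factor VIII), was called in 4n-whole against 2n-whole. F8 read 5.80, 6.99, 3.33 and 5.02 CPM in 2n-whole of mice 1 to 4 and 4.59, 3.08, 2.03 and 3.01 CPM in 4n-whole, lower in each mouse (-0.96 ± 0.24, adjusted p 0.0183 in edgeR). Of 32 other macrophage genes 16 were tested and 2 were called: Irf8, a transcription factor of myeloid cells, fell (-1.54 ± 0.47, adjusted p 0.0487), and Hmox1, the haem oxygenase that hepatocytes also make, rose (0.74 ± 0.18, adjusted p 0.0130). Of 27 other stellate and fibroblast genes 13 were tested and 0 were called. Over all genes tested 3.47% were called in this comparison. The median log2 fold changes of the endothelial, macrophage and stellate companions were -1, -0.46 and -1.30. Their summed CPM did not follow these medians: in mice 1 to 4 the 4n-whole sum was 1.03, 1.49, 1.08 and 1.36 times the 2n-whole sum for the macrophage companions, and 1.11, 1.40, 1.15 and 1.34 times for the stellate companions. For the endothelial companions it was 1.03, 1.195, 0.888 and 1.17 times. None of these lists had a call in the other 5 comparisons. Their summed levels were led by a few genes, Nrp1 and Gata4 with 72.8% of the endothelial companions and Cxcl12 and Steap4 with 96.8% of the stellate companions.

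Markers of other cells that the sort could hold were read in the same way. Lymphocyte genes summed to 0.502 to 2.33 CPM, of which Cxcr6 gave 80.0%, neutrophil genes to 0 to 0.635 CPM and mesothelial genes to 0 to 0.692 CPM. S100a8, S100a9, Trbc2, Gzma, Ltb and Upk3b had no count in any library. Bile duct genes summed to 51.9 to 89.0 CPM, and 2 of 7 tested were called lower in 4n-whole than in 2n-whole, beside 1.73% of all genes tested. These were Spp1 (osteopontin) and Sox9, named after their values were seen. Spp1 read 8.29, 7.41, 7.54 and 11.9 CPM in 2n-whole and 1.47, 1.36, 1.27 and 1.64 CPM in 4n-whole (-2.81 ± 0.38, adjusted p 2.0e-05 in edgeR). It was also called in 4n-bottom (-1.90 ± 0.36, adjusted p 0.00720) and in 4n-top (-2.73 ± 0.43, adjusted p 0.000266). Spp1 is made by bile duct cells and macrophages among others, and whether its level moves with the marker genes was not tested. The share of mitochondrial counts was also higher in every 2n-whole library than in the 4n-whole library of the same mouse, and its part in the marker differences was not tested beyond leaving those genes out.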

How the data were processed

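The authors aligned reads to GRCm39 with STAR (2.7.11a in the submitters' processing notes) and counted them per gene with featureCounts. The deposited values are raw counts per gene symbol, without normalization or adjustment for the mouse. The strand setting and the handling of pairs were not given in the sources used here, and 78.0% of the 364 nonzero marker counts were even, so 3 counts may be fewer than 3 fragments. Gene positions and exon lengths are from GENCODE M39.

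CPM was computed on each library's total. Tests used edgeR 4.0.16 (R 4.3.3) with TMM factors, the default filter (minimum count 10, minimum total 15), all 15 libraries, population as factor and mouse as block, with p-values adjusted over 17488 genes in each of 6 comparisons. The SE is the fold change divided by the root of the F statistic. The subject number in the labels gave the mouse. Over 21 pairs of libraries from 1 mouse the residual correlation across genes was 0.158 on average (0.0845 to 0.227). It was positive in every pair, but pairs of libraries from different mice were not set beside these.

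The markers and companion lists were chosen with earlier results of these data known. Values per library are given for markers called in a comparison and for the 3 most abundant of each cell type, for companion lists up to 3 called genes are named, and others are said to be chosen after their values were seen. With the mouse as a block, a p-value refers to the spread that remains between libraries after differences between these mice are taken out. Alternatives were no block, DESeq2 1.42.0 size factors in edgeR, no filter, DESeq2 with the block, ComBat-seq (sva 3.50.0) before DESeq2 as in the study, the 2 populations only, no fold limit, ribosomal and mitochondrial genes left out (112 genes), counts halved, and each mouse or library left out. The edgeR fit was run on simulated counts with genes changed in 4n-whole only. These held no differences between mice, so they do not test the block for the mouse.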

Additional observations from a re-analysis of the deposited data

Results flagged for a closer look

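In 4n-bottom the summed stellate markers of mouse 1, 3.91 CPM, stood apart from the other 3 mice (2.52 to 2.64 CPM). The gap made up 0.916 of the range of the 4 libraries, above Dixon's critical value for 4 samples. Lrat (0.705 CPM) and Reln (2.87 CPM) were both at their highest of the 4n-bottom libraries in this mouse. Of 36 groups of values examined 1 stood apart in this way, and chance alone sets apart about 1 in 20.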

How the results depend on the processing

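With no replicate block the marker called lower in 4n-whole than in 2n-whole was lost (0 markers, Ptprb -0.61), as it was with the libraries of the 2 populations only (0 markers, Ptprb -0.97, adjusted p 0.144). With no filter on low counts 3, 2 and 4 markers were called lower in 4n-whole, 4n-bottom and 4n-top than in 2n-whole, and with ComBat-seq before DESeq2 2, 2 and 4. DESeq2 with the block called 3 in 4n-top, and the 2 populations only called 3 there. Leaving out ribosomal and mitochondrial genes, or halving counts, gave 2 in 4n-whole. Leaving out 1 mouse or library gave 0 to 3, 0 to 1 and 0 to 2 markers, with the log2 fold change of Ptprb from -1.34 to -0.57 (lowest size without mouse 4, adjusted p 0.400). In 4n-whole, 3 markers (Kdr, Ptprb and Vsig4) were called without mouse 1 or its 2n-whole library and 2 (Ptprb and Vsig4) without its 4n-whole library. None was called without mouse 4, without the 2n-whole library of mouse 3 or 4, or without the 4n-whole library of mouse 2 or 4. In 4n-bottom, Ptprb was called without mouse 2 or its 2n-whole library, Cd74 without mouse 3 and Kdr without the 2n-whole library of mouse 1. In 4n-top, Stab1 was called without mouse 1 or its 2n-whole library, Cdh5 and Ptprb without mouse 2, Stab1 and Ptprb without the 2n-whole library of mouse 2, and Cdh5 without the 4n-top library of mouse 2. The cause of these differences was not tested. No marker was called higher in any comparison or setting, none was called within the tetraploid cells, and no fold change of Ptprb turned its direction. Counts over all genes moved too: with no replicate block 40, 0 and 2 genes were called in 4n-whole, 4n-bottom and 4n-top against 2n-whole, beside 607, 81 and 168 with it, and with ComBat-seq before DESeq2 1195, 315 and 584. At these depths 8 of 33 markers did not pass the filter on low counts, and none of these was called with the filter left out. A library had 3 to 17 of the 33 markers at or under 3 counts (median 11), which limits the differences that could be detected in them.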
